A study of Mus musculus with 8 samples.

Results

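The 85 genes described here encode subunits of the 5 complexes of oxidative phosphorylation, taken by gene symbol from the 24421 genes of the deposited files. Symbols beginning with Ndufa, Ndufb, Ndufc, Ndufs or Ndufv gave 38 genes of complex I, without the assembly factors whose symbols begin with Ndufaf. Sdha, Sdhb, Sdhc and Sdhd are the 4 genes of complex II, symbols beginning with Uqcr gave 8 genes of complex III, Cox4 to Cox8 gave 18 genes of complex IV, and Atp5 gave 17 genes of complex V. The rule used names and no measured value. Some of the names are historical: Ndufa4 is now regarded as a subunit of complex IV and Ndufa4l2 is its paralog, Cox7a2l takes part in joining complexes III and IV, and Atp5s and Atp5sl are not core parts of the ATP synthase. They are kept in the complex of their prefix.

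Oxidative phosphorylation is the last stage of respiration in mitochondria. Complex I takes electrons from NADH and complex II takes them from succinate, complex III passes them to cytochrome c, and complex IV hands them to oxygen. Complexes I, III and IV pump protons across the inner membrane, and complex V, the ATP synthase, makes ATP from their return flow. Most subunits are encoded in the nucleus, a few by mitochondrial DNA, and several nuclear subunits of complex IV exist as ubiquitous and tissue-restricted isoforms. Bone-forming cells use glycolysis as well as respiration. None of the 13 protein-coding genes of mitochondrial DNA was found in the files, so that the results concern nuclear genes only.

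Osteoblastic cells were isolated from the calvaria, the flat bones of the skull, of newborn wild type (WT) and Def6-/- mice of the C57BL/6 strain. Def6, which encodes a signaling protein, is absent from Def6-/- mice, and the study's methods name no cell-type-restricted driver for the deletion. Cells of both genotypes were expanded in α-MEM with serum and sampled either at day 0 or after 12 days in osteogenic medium with ascorbic acid and β-glycerophosphate. Poly-A RNA of 2 libraries was sequenced in each of the 4 groups, and the cells had not been sorted to remove blood cells. The study calls the libraries biological replicates, while the labels do not say whether they came from separate animals or cultures, so that p-values measure the spread between these libraries.

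Each library held between 2414856 and 3482837 reads on genes. Def6 had between 112 and 186 reads in the WT libraries and between 0 and 2 reads in the Def6-/- libraries, which matches the labels. Levels are given as normalized CPM, which are reads of a gene per 1000000 reads on genes after correction with TMM factors (a scaling that makes the bulk of genes equal between libraries). Differences are given on the scale of log2(normalized CPM + 1), a scale on which low genes change by less than their reads do. They were tested with limma over 12348 genes, those whose deposited CPM averaged 1 or more in any group. Of the 85 genes, 80 passed this filter. The osteoblast markers Col1a1, Runx2 and Alpl were present in all 8 libraries. Alpl, which marks differentiating osteoblasts, was between 13.2 and 20.8 normalized CPM at day 0 and between 239 and 389 at day 12. Of the 10 osteoblast markers listed, Bglap was at 0 in all libraries at day 0 and between 6.3 and 18.9 at day 12. Runx2, Sp7, Spp1 and Dlx5 overlapped between days, Spp1 at between 2528 and 6742 at day 0 and between 1999 and 3336 at day 12. The summed level of 13 markers of macrophages and osteoclasts was between 217 and 456 normalized CPM at day 0 and between 3265 and 6465 at day 12, with no marker at 0 reads in any library. Of the 13, Lyz2 was the highest at day 12, at between 1926 and 4049, and Coro1a the lowest, at between 8.79 and 23.2. Ptprc and Acp5, the others of the 15 listed, were left out because not all of their deposited values were whole numbers of reads. The study describes single markers of both cell types as very low in this culture system, below 1 to 2 CPM. Which marker genes it used is shown only in a figure. It also reports more differentiation of Def6-/- cells after removal of CD45-positive cells, and no effect of co-cultured Def6-/- macrophages on osteoblasts. In RNA from whole cultures, a smaller number of cells of a type and less RNA per cell cannot be told apart.

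One library stood apart in its oxidative phosphorylation genes. In WT replicate 1 at day 0 the 85 genes took 1.23% of the reads on genes, against 0.621% in WT replicate 2 at day 0, 0.682% and 0.674% in Def6-/- cells at day 0, 0.638% and 0.583% in WT cells at day 12, and 0.598% and 0.601% in Def6-/- cells at day 12. Thus 7 libraries lay between 0.583% and 0.682%, and the first WT library at day 0 was far above them all. Reads with more than 1 alignment made up 34.9% of that library and between 21.4% and 26.6% of the others. Of the 80 genes tested, 77 were higher in replicate 1 than in replicate 2 of WT cells at day 0, 57 of them by more than 2-fold, and the median log2 difference was 1.26. Over all genes tested the median difference between the same replicates was 0.04.

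**Figure D1:**
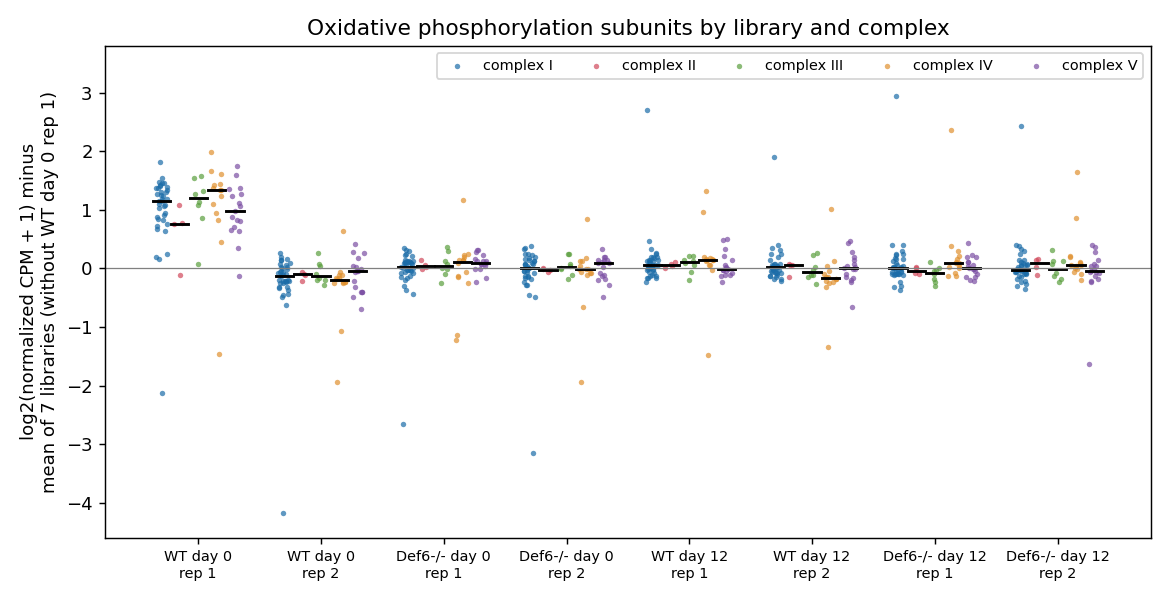
Level of each of the 80 tested subunits in each library, as log2(normalized CPM + 1) minus that gene's mean over the 7 libraries other than WT replicate 1 at day 0. Points are genes, coloured by complex, and black bars are medians per complex; the first library sits above the rest in all 5 complexes, with medians from 0.76 in complex II to 1.34 in complex IV, while the medians of the other 7 libraries lie between -0.20 and 0.15.

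The excess in that library moved with the length of the gene. Genes tested with merged exons under 700 bases had a median log2 difference of 1.22 between replicates 1 and 2 of WT cells at day 0, those of 2500 to 5000 bases differed by 0.00, and those over 5000 bases by -0.55. In the other 3 groups the medians of all length classes lay between -0.09 and 0.14. The subunits are short, with a median exon length of 992 bases against 3413 for the 12295 tested genes with a known length. The Spearman rank correlation between exon length and the difference between these replicates was -0.55 across the subunits and -0.61 across all genes, and between -0.18 and 0.19 in the other groups, where genes are not independent replicates. Other sets of short genes moved in the same direction: 87 cytoplasmic ribosomal protein genes by a median of 1.44 and 77 mitochondrial ribosomal protein genes by 0.96. Within a length class the subunits lay above the median of all genes, with a median of 1.52 under 700 bases, 1.19 at 1000 to 1500 bases and 0.97 at 2500 to 5000 bases, where all genes had 1.22, 0.83 and 0.00. Of the 7 subunits over 2500 bases, Atp5g1 had 63.9 and 31.4 normalized CPM in replicates 1 and 2, Ndufab1 had 28.0 and 13.4, Ndufb2 had 77.7 and 24.4, Sdhc had 191 and 96.8 and Atp5a1 had 712 and 572, all higher in replicate 1. The other 2 did not share the excess: Sdha, the flavoprotein of complex II, had 202 and 211, and Ndufs1, an iron-sulfur subunit of complex I, had 88.8 and 95.4. Atp5g1, Ndufab1 and Ndufb2 are in this class by the length of their annotated exons. Their median levels per kb were low, at 5.82, 2.81 and 6.73 normalized CPM. Whether their transcripts in these cells were that long was not tested, so that this class may hold short transcripts. Among the shortest, Atp5e, the epsilon subunit of the ATP synthase, had 280 and 50.2. The 2 WT libraries at day 0 also differed in other genes. The summed level of 11 markers of cycling cells was 265 and 707 normalized CPM in replicates 1 and 2. In Def6-/- cells at day 0 this sum was 301 and 546. The part of gene length, RNA quality, library preparation or the state of the culture in the excess was not tested. The results on days and on genotype at day 0 are therefore given with and without WT replicate 1 at day 0. Without that library, WT cells at day 0 have 1 library, whose spread is taken from the other groups. Standard errors and p-values of comparisons with WT cells at day 0 in that fit are therefore not evidence from replicates. The library was also singled out through these same genes.

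**Figure D2:**
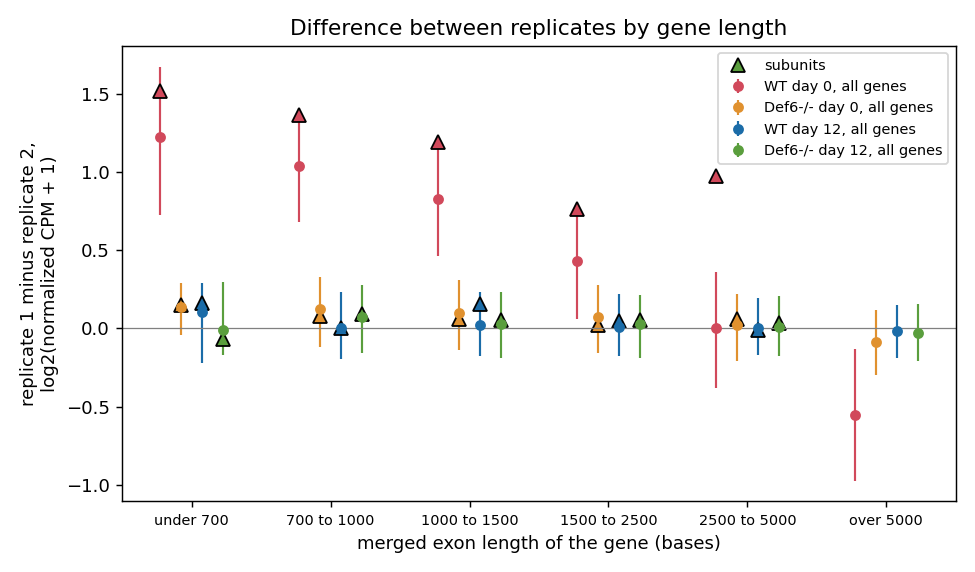
Difference between replicate 1 and replicate 2 on the log2(normalized CPM + 1) scale, by the merged exon length of the gene in bases, for each of the 4 groups. Circles are medians of all genes tested with quartiles as bars, triangles are medians of the oxidative phosphorylation subunits; in WT cells at day 0 the circles fall from 1.22 in the shortest class to -0.55 in the longest, and in the other 3 groups they stay between -0.09 and 0.14.

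In the 7 other libraries most subunits varied little. Of the 80 genes, 69 had a mean of at least 20 normalized CPM over these 7 libraries, and for 54 of the 69 (78.3%) the highest library was less than 1.5-fold above the lowest. The difference reached 2-fold for 4 of them (5.80%), namely Ndufa4l2, Atp5e, Ndufa1 and Atp5g1. Of all 7542 tested genes with such a mean, 39.7% stayed under 1.5-fold and 25.3% reached 2-fold. The other 11 subunits were lower and include the isoforms Cox4i2, Cox6a2 and Cox6b2, described below. The summed level of the 85 genes was 5882 normalized CPM in WT replicate 2 at day 0, 6595 and 6386 in Def6-/- cells at day 0, 6375 and 6164 in WT cells at day 12 and 6203 and 6197 in Def6-/- cells at day 12, and it was 12546 in WT replicate 1 at day 0.

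By complex, the sums in the 7 libraries lay within these ranges. Complex I genes summed to between 1617 and 1908 normalized CPM, complex II genes to between 448 and 502, complex III genes to between 491 and 591 and complex IV genes to between 885 and 1117. Complex V genes summed to between 2289 and 2652, with 2652 and 2601 in Def6-/- cells at day 0 and 2293 and 2289 at day 12. In Def6-/- cells the sums of complexes III and V were lower at day 12 than at day 0 without overlap, with 591 and 557 against 491 and 535 in complex III, and that of complex I was higher, with 1786 and 1766 against 1880 and 1806. In WT cells, complex IV went from 885 in replicate 2 at day 0 to 1117 and 999 at day 12, complex III from 538 to 559 and 532, complex I from 1617 to 1908 and 1840 and complex V from 2394 to 2289 and 2299. These sums were not tested, and the sum of complex V is led by a single gene, Atp5b. The complex I sums include Ndufa4l2, at 1.88 and 1.02 in Def6-/- cells at day 0 and 138 and 96.5 at day 12. In Def6-/- cells this gene alone rose by more than the complex I sum did. In WT cells it went from 0 in replicate 2 at day 0 to 117 and 66.6 at day 12.

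Levels of different genes were compared per kb of merged exon, as medians over the 8 libraries. In complex V the highest was Atp5b, the catalytic beta subunit, at 419 normalized CPM per kb, and the lowest was Atp5sl at 3.54. In complex IV Cox6a1, the ubiquitous form of subunit VIa, had 396 and Cox4i1, the ubiquitous form of subunit IV, had 342, whereas Cox4i2 had 1.81. In complex I Ndufa4 had 128 and Ndufab1, the mitochondrial acyl carrier protein, had 2.81. In complex III Uqcrh, the hinge protein, had 121 and Uqcrfs1, the Rieske iron-sulfur protein, had 42.7. In complex II the levels lay closest together, from 36.2 for Sdhc, a membrane anchor, to 75.4 for Sdha. The merged exon length joins the exons of the protein-coding transcripts of a gene in the GENCODE basic annotation. A long annotated exon lowers the value per kb: Ndufab1 and Ndufb2 have 4.39 and 4.38 kb and Atp5g1 has 4.91 kb.

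Of the 85 genes, 5 did not pass the filter. Ndufs5, an accessory subunit of complex I, was listed at 0 in all 8 libraries; 31.1% of its 50-base stretches also occur in transcripts of BC002163, which itself had at most 3.95 normalized CPM. Cox7b2 and Cox8c had no read in any library. Cox8b, a heart and skeletal muscle isoform, had 3 reads in Def6-/- replicate 1 at day 12 and none elsewhere, and Cox7a1, the heart and muscle form of subunit VIIa, had 10 reads in all, 6 of them in WT replicate 1 at day 12. Counting can also lose or share reads for other members: 27 of the 85 share more than 10% of their 50-base stretches with transcripts of other genes, and Atp5g2 at 87.4% and Atp5l at 84.9% share the most. Their levels are uncertain for that reason.

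Nuclear genes for respiratory subunits are known targets of NRF1, of the ETS factor GABPA (NRF2), of ERRα and of YY1. RefSeq promoter windows on GRCm38.p6, from 250 bases before to 50 bases after the start, were matched for 70 of the 85 genes and searched on both strands, and matches of different motifs may overlap. The NRF1 motif GCGCANGCG was found for 20 of the 70 genes (28.6%) and for 7.03% of all 27025 genes in the table. The GABPA motif CCGGAAG was found for 16 (22.9% against 9.93%), the ERRα motif AAGGTCA for 8 (11.4% against 5.38%) and the YY1 motif AANATGGCG for 11 (15.7% against 2.76%). At least 1 of the 4 was found for 40 of the 70 (57.1%) and for 21.9% of all genes. A match describes the letters of a window and does not show binding. The 27025 genes were not limited to those expressed in these cells or matched for base composition. The part of either in the difference of shares was not tested.

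The 3 stretches that follow lie before the start and outside annotated exons. They show a ubiquitous complex IV subunit with an NRF1 match on both strands and another on 1 strand, an ATP synthase subunit with a GABPA match, and Cox6b2, an alternative isoform described below, which had no match in its window. The stretches of Cox6b1, the ubiquitous partner of Cox6b2, and of Atp5b also held no match and are not printed. The whole window of Cox6b1 held a GABPA match and that of Atp5b a YY1 match. The 3 stretches therefore show no contrast between ubiquitous and alternative forms. Motifs on either strand are in capitals, and each stretch is written along its gene from 5′ to 3′.
Cox6a1: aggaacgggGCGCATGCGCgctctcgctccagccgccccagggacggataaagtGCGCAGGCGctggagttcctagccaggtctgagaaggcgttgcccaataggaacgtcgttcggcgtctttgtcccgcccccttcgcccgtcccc
Atp5e: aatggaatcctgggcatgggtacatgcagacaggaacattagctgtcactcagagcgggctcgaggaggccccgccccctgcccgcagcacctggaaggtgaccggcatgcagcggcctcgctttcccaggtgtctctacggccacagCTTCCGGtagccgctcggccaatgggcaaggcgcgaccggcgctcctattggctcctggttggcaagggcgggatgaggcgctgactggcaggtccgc
Cox6b2: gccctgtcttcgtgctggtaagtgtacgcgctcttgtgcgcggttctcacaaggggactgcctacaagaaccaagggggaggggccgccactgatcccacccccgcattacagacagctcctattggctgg
The Cox6a1 stretch is chr5:115348982-115349129, the Atp5e stretch is chr2:174464106-174464351 and the Cox6b2 stretch is chr7:4753095-4753225, all on the minus strand of GRCm38.p6. The NRF1 matches of Cox6a1 begin 162 and 161 bases (overlapping) and 117 bases before the start, and the GABPA match of Atp5e begins 102 bases before it.

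The first question was how the subunits changed with osteogenic culture. With all 8 libraries, 2 of the 80 genes rose and 2 fell between day 0 and day 12 in WT cells at an adjusted p under 0.05 (limma, Benjamini-Hochberg), where 12.7% of all genes tested rose and 5.63% fell. In Def6-/- cells 2 rose, against 12% of all genes, and none fell by limma, edgeR or DESeq2, against 4.79% by limma; 3 were lower at an unadjusted limma p under 0.05. The subunits had a median difference of -0.45 in WT and -0.04 in Def6-/- cells, where the medians of all genes were -0.00 and 0.01. The summed macrophage and adipocyte markers were also higher at day 12, the latter at between 36.9 and 47.0 normalized CPM at day 0 and between 311 and 439 at day 12, and their part in the changes with days was not tested.

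Without WT replicate 1 at day 0, the median in WT cells turned from -0.45 to 0.16, and it stayed at -0.04 in Def6-/- cells. In WT cells 8 subunits then rose and 2 fell, against 15.4% and 9.64% of all genes. In Def6-/- cells, whose own libraries did not change, 7 then rose and 4 fell, against 19.9% and 15% of all genes, because the groups share 1 estimate of the spread. When WT replicate 2 at day 0 was left out in its place, 2 subunits rose and 68 fell in WT cells, against 24.6% and 21.5% of all genes, with a median of -1.11. The direction of the subunits as a whole in WT cells therefore depended on which library was kept. In each of these fits WT cells at day 0 had 1 library, so that the counts in WT cells rest on it.

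Per complex, the medians without that library were close together. In WT cells they were 0.17 in complex I, 0.15 in complex II, 0.12 in complex III, 0.21 in complex IV and -0.01 in complex V. In Def6-/- cells they were -0.04, 0.02, -0.02, 0.02 and -0.15 in the same order. With all 8 libraries the WT medians were -0.46, -0.29, -0.47, -0.58 and -0.33.

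**Figure D3:**
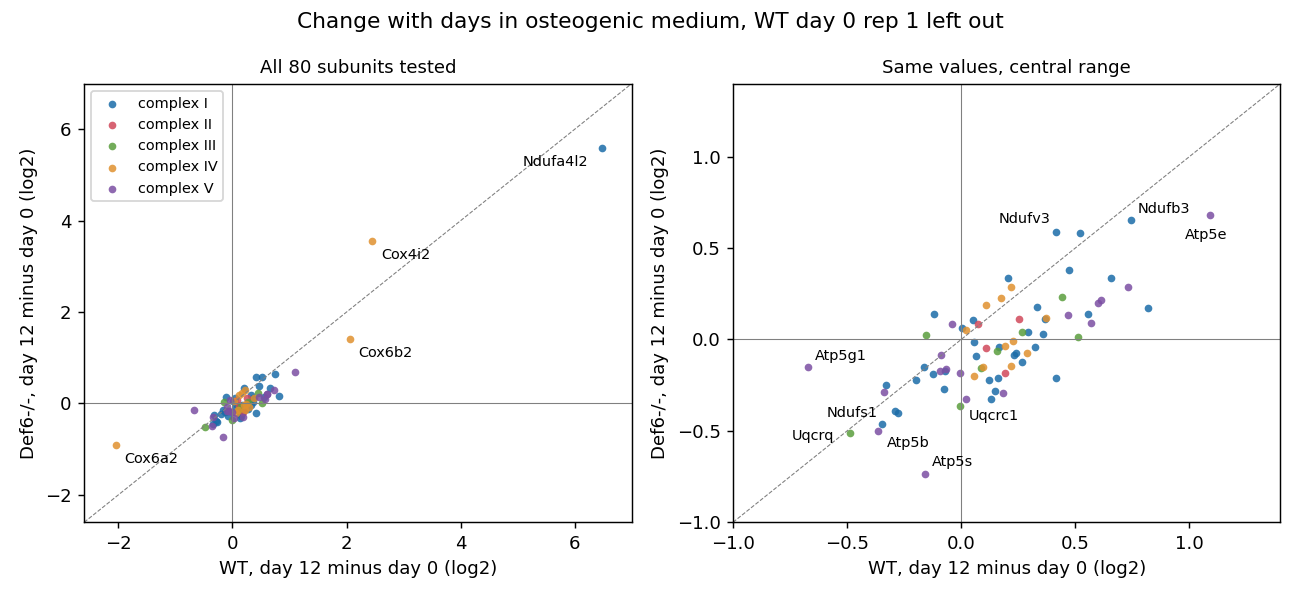
Change of each of the 80 tested subunits between day 0 and day 12 on the log2(normalized CPM + 1) scale, in WT cells on the horizontal axis and in Def6-/- cells on the vertical axis, fitted without WT replicate 1 at day 0; the dashed line marks equal change and colours mark the complex. The right panel enlarges the central range of the left one. Most points lie within 0.5 of 0 on both axes, and Ndufa4l2, Cox4i2, Cox6b2 and Cox6a2 lie far from the rest.

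The members with the largest changes were alternative isoforms. Ndufa4l2, a paralog of Ndufa4 known as a hypoxia-inducible gene, lies on chromosome 10 from 127514967 to 127517154 of GRCm38. It had 3.16 and 0 normalized CPM in WT cells at day 0, 1.88 and 1.02 in Def6-/- cells at day 0, 117 and 66.6 in WT cells at day 12 and 138 and 96.5 in Def6-/- cells at day 12. All 4 libraries at day 12 were far above all 4 at day 0, and the genotypes overlapped. It rose by 5.46 on the log2 scale in WT cells (standard error 0.60, adjusted p = 0.000555 by limma) and by 5.59 in Def6-/- cells (standard error 0.60, adjusted p = 0.000501 by limma). In reads, WT cells had 568 at day 12 against 8 at day 0, a ratio of 64.9 after scaling (95% exact counting interval 32.7 to 151), and Def6-/- cells had 561 against 8, a ratio of 82.1 (41.4 to 191). All 8 WT reads at day 0 came from replicate 1, the library that stood apart. Without it the day 0 count in WT cells was 0, which leaves a lower limit of 74.0 for the ratio and no upper one, and the fitted rise was 6.48 in WT cells (adjusted p = 5.34e-07 by limma) and 5.59 in Def6-/- cells (adjusted p = 1.73e-07 by limma). These intervals cover counting error only. Of the 4 libraries at day 12, Ndufa4l2 made up 47.8% and 36.1% of the summed Ndufa4 and Ndufa4l2 level per kb in WT cells and 59.7% and 46.2% in Def6-/- cells, and at most 1.4% at day 0. Ndufa4 itself had 74.9 in WT replicate 2 at day 0, 90.7 and 81.4 in Def6-/- cells at day 0, 85.5 and 78.7 in WT cells at day 12 and 62.0 and 75.1 in Def6-/- cells at day 12. Exons of Ndufa4l2 and its neighbor Shmt2 share 32 bases, and Shmt2 fell from between 163 and 220 normalized CPM at day 0 to between 40.2 and 74.7 at day 12.

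Cox4i2, the alternative form of subunit IV that is also known to respond to low oxygen, lies on chromosome 2 from 152754173 to 152765037. It had 0.39 and 0 normalized CPM in WT cells at day 0, 0.75 and 0 in Def6-/- cells at day 0, 8.61 and 2.09 in WT cells at day 12 and 18.9 and 11.1 in Def6-/- cells at day 12. Again every library at day 12 lay above every library at day 0. It rose by 2.21 in WT cells (standard error 0.58, adjusted p = 0.0304 by limma) and by 3.55 in Def6-/- cells (standard error 0.58, adjusted p = 0.00371 by limma). The read numbers were low at day 0, with 1 read in WT and 2 in Def6-/- cells, against 35 and 72 at day 12, which gave ratios of 32.0 (95% exact counting interval 5.37 to 1299) and 42.2 (11.3 to 355). Leaving out WT replicate 1 at day 0, it rose by 2.45 in WT cells (adjusted p = 0.02 by limma). With 1 library left out in turn the WT rise ranged from 1.39 to 3.02, and the call was lost, among other settings, without WT replicate 1 at day 12 (1.39, adjusted p = 0.204 by limma) and, at an unchanged 2.21, when only the WT libraries were fitted (adjusted p = 0.0884 by limma). The ubiquitous Cox4i1, with between 223 and 281 normalized CPM in the 7 libraries, still made up between 93.6% and 99.2% of the subunit IV level per kb at day 12.

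Cox6b2, a form of subunit VIb best known from testis, lies on chromosome 7 from 4751792 to 4753094. It had 13.0 and 3.89 normalized CPM in WT cells at day 0, 3.39 and 5.45 in Def6-/- cells at day 0, 18.9 and 19.7 in WT cells at day 12 and 9.85 and 17.5 in Def6-/- cells at day 12. The library that stood apart was the highest at day 0 and overlapped the range of day 12. Over all 8 libraries the differences were 1.29 and 1.41 in WT and Def6-/- cells, with adjusted p = 0.11 and 0.0904 by limma. Without that library it was higher at day 12 by 2.06 in WT cells, with 1 library left at day 0, and by 1.41 in Def6-/- cells. Its share of the subunit VIb level per kb was between 2.5% and 4.9% at day 0 and between 8.1% and 15.4% at day 12, the rest being Cox6b1.

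Cox6a2, the heart and skeletal muscle form of subunit VIa, moved in the opposite direction. It lies on chromosome 7 from 128205435 to 128206387 and had 8.29 and 4.59 normalized CPM in WT cells at day 0, 7.15 and 5.45 in Def6-/- cells at day 0, 0.29 and 0.42 in WT cells at day 12 and 3.70 and 2.13 in Def6-/- cells at day 12. The groups did not overlap between days in either genotype, and the 2 Def6-/- libraries at day 12 exceeded the 2 of WT cells. It fell by 2.42 on the log2 scale in WT cells (standard error 0.39, adjusted p = 0.00367 by limma). Without WT replicate 1 at day 0 it fell by 2.05 in WT cells (adjusted p = 0.00944 by limma). In Def6-/- cells the difference was -0.92 (standard error 0.39, adjusted p = 0.156 by limma). In reads, WT cells had 34 at day 0 and 2 at day 12. The summed level of 10 skeletal muscle markers was between 5.3 and 14.3 normalized CPM at day 0 and between 26.4 and 38.5 at day 12, with between 3 and 7 markers at 0 reads in a library. The list was higher at day 12 through Actn3, at between 2.0 and 2.3 at day 0 and between 17.2 and 29.7 at day 12, and Myh8, at 0 at day 0 and between 2.9 and 7.8 at day 12. Ckm, Myog and Tnnc2 were at or near 0 throughout, and Acta1 was between 2.1 and 10.2 at day 0 and between 0 and 1.7 at day 12. The part of muscle cells in the Cox6a2 reads was not tested. Itgad, whose exons share 70 bases with Cox6a2, had 0 reads in all libraries.

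**Figure D4:**
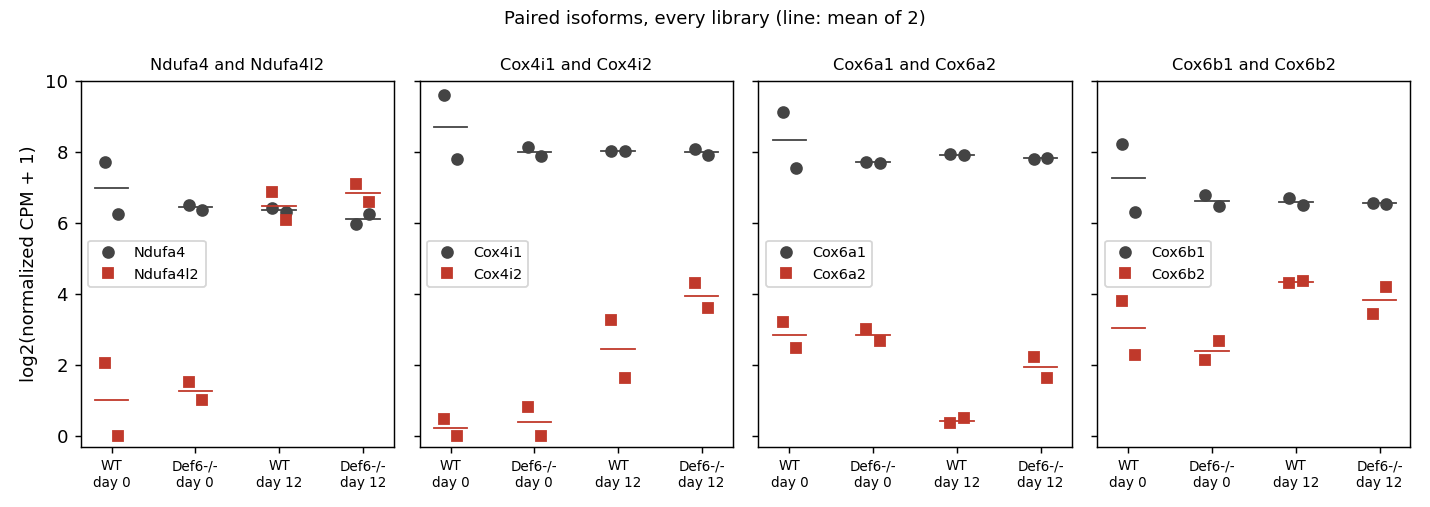
Levels of 4 pairs of isoforms in every library on the log2(normalized CPM + 1) scale, by group; circles are the ubiquitous form, squares the alternative form, and lines are means of the 2 libraries of a group. Ndufa4l2 reaches the level of Ndufa4 at day 12, Cox4i2 and Cox6b2 rise but stay below their partners, and Cox6a2 is lower at day 12 than at day 0 in both genotypes.

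Other isoform families kept their makeup. Cox7a2 and Cox7a2l shared the subunit VIIa level per kb at between 54.1% and 65.5% and between 34.5% and 45.9% in the 8 libraries, and Cox7a1 was at most 2.7%. Cox7b made up all of its family, and Cox8a at least 98.3% of its own. For the c subunit of the ATP synthase, which forms the rotor ring and comes from 3 genes with the same mature protein, Atp5g3 made up between 89.3% and 92.6%, Atp5g2 between 5.6% and 8.4% and Atp5g1 between 1.3% and 2.4%. These 3 shares are uncertain. The level of Atp5g1 is divided by 4.91 kb of annotated exon and that of Atp5g3 by 0.724 kb. Atp5g2 shares 87.4% of its 50-base stretches with transcripts of other genes, so that its reads can be lost. Atp5g1 had 63.9 and 31.4 normalized CPM in WT cells at day 0, 32.3 and 27.6 in Def6-/- cells at day 0, 23.5 and 15.9 in WT cells at day 12 and 29.6 and 24.3 in Def6-/- cells at day 12. It fell in WT cells with all 8 libraries by 1.17 on the log2 scale (standard error 0.35, adjusted p = 0.0466 by limma), and without the library that stood apart the difference was -0.67 (standard error 0.27, adjusted p = 0.0956 by limma).

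Among the single-form subunits, Atp5b and Uqcrq were lower at day 12. Atp5b, the catalytic subunit of the ATP synthase and the most abundant gene of all 85, had 1235 and 895 normalized CPM in WT cells at day 0, 963 and 995 in Def6-/- cells at day 0, 677 and 713 in WT cells at day 12 and 684 and 701 in Def6-/- cells at day 12. All 4 libraries at day 12 were below all 4 at day 0. Over all 8 libraries the differences were -0.60 and -0.50 in WT and Def6-/- cells (standard error 0.20, adjusted p = 0.0673 and 0.124 by limma). Without WT replicate 1 at day 0 it fell by 0.50 in Def6-/- cells (standard error 0.11, adjusted p = 0.0035 by limma), while the difference of -0.36 in WT cells had an adjusted p of 0.0605.

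Uqcrq, a small subunit of complex III, had 258 and 106 normalized CPM in WT cells at day 0, 114 and 105 in Def6-/- cells at day 0, 77.2 and 72.9 in WT cells at day 12 and 77.6 and 75.1 in Def6-/- cells at day 12. The libraries at day 12 lay within 4.74 normalized CPM of each other and below all others. Without the library that stood apart it was lower at day 12 by 0.49 in WT cells, with 1 library left at day 0, and by 0.51 in Def6-/- cells. When the library that stood apart was kept the differences were -1.13 and -0.51, with adjusted p = 0.0536 and 0.372 by limma. In Def6-/- cells Ndufs1 and the core subunit Uqcrc1 of complex III also fell without that library, by 0.39 and 0.36 on the log2 scale (adjusted p = 0.0291 and 0.0465 by limma), and with it they had adjusted p = 0.155 and 0.405 by limma.

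Atp5e was higher at day 12 in the 7 libraries. It lies on chromosome 2 from 174461072 to 174464105 and had 280 and 50.2 normalized CPM in WT cells at day 0, 70.0 and 58.2 in Def6-/- cells at day 0, 117 and 99.7 in WT cells at day 12 and 96.9 and 109 in Def6-/- cells at day 12. Without WT replicate 1 at day 0 it was higher at day 12 by 1.09 in WT cells, with 1 library left at day 0, and by 0.68 in Def6-/- cells. When WT replicate 1 was kept the difference in WT cells was -0.14 (standard error 0.61, adjusted p = 0.903 by limma), and that in Def6-/- cells was 0.68 with an adjusted limma p of 0.52. Atp5e is among the shortest members, with 421 exon bases.

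The other members that rose without that library were small accessory subunits of complex I and subunits of the peripheral stalk or membrane part of complex V. In WT cells these rises are measured against 1 library at day 0. Ndufb3 had 16.3 normalized CPM in WT replicate 2 and 16.6 and 18.4 in Def6-/- cells at day 0, and between 27.3 and 28.5 in the 4 libraries at day 12. It rose by 0.74 in WT cells and by 0.66 in Def6-/- cells (adjusted p = 0.0375 and 0.02 by limma). Ndufa13 (0.66), Atp5j2 (0.73) and Atp5j (0.47) rose in WT cells only by this test, and Ndufa3 (0.58) and Ndufv3 (0.59) in Def6-/- cells only, and none of these 5 genes had an interaction of genotype and day under an unadjusted limma p of 0.05. None of them passed the test with all 8 libraries, where Ndufb3, Ndufa3 and Ndufv3 had adjusted limma p-values of 0.415, 0.364 and 0.133 in Def6-/- cells. Ndufb3, Ndufa13, Ndufa3, Atp5j and Atp5j2 had differences below 0 in WT cells with all 8 libraries, from -0.31 to -0.08.

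The second question was whether the subunits differed between the genotypes. At day 12, 2 of the 80 genes were higher in Def6-/- cells and 0 lower at an unadjusted limma p under 0.05, where 0.81% and 0.591% of all genes were. No member, and 0.0081% of all genes, had an adjusted limma p under 0.05. By edgeR and DESeq2 on recovered reads 1 member was higher and none lower at an unadjusted p under 0.05, and 0 had an adjusted p under 0.05. Without WT replicate 1 at day 0, which is not among these libraries and changes only the estimate of the spread, the background was 2.06% and 1.69%, and the 2 and 0 members were the same. The median difference of the subunits was -0.02 and that of all genes was -0.00. Per complex the medians were -0.02 in complex I, -0.01 in complex II, -0.03 in complex III, 0.06 in complex IV and -0.06 in complex V.

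Both genes were low isoforms of complex IV. Cox6a2 was higher in Def6-/- cells at day 12 by 1.51 on the log2 scale (standard error 0.39, unadjusted limma p of 0.00428, adjusted p = 1), from 14 reads against 2, a ratio of 8.60 after scaling (95% exact counting interval 1.98 to 78.0). Cox4i2 was higher by 1.51 (standard error 0.58, unadjusted limma p of 0.0295, adjusted p = 1), from 72 reads against 35, a ratio of 2.53 (95% exact counting interval 1.67 to 3.9). Both libraries of Def6-/- cells lay above both of WT cells for each gene. The Cox4i2 difference was 1.15 without Def6-/- replicate 1 (unadjusted limma p of 0.158) and 0.69 without WT replicate 2 at day 12 (unadjusted limma p of 0.252). At day 12 the summed level of 8 adipocyte markers was 311 and 334 normalized CPM in WT cells and 427 and 439 in Def6-/- cells. At most 1 of the 8 was at 0 reads in a library. Most of the sum was Lpl, at 278 and 297 against 368 and 355. Adipoq, Plin1, Cfd and Fabp4 were also higher in both Def6-/- libraries, Adipoq at 2.3 and 2.5 against 7.4 and 12.8. Pparg was not, at 15.2 and 22.2 against 15.2 and 18.4, and Cidec and Lep were at most 2.6. Of 4 brown fat markers 3 were at 0 reads in each library, Ucp1 and Cidea in all of them. The part of adipocytes in the Cox4i2 difference was not tested.

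With all 8 libraries no member was lower in Def6-/- cells at day 12 at an unadjusted limma p under 0.05. Atp5s had 8.90 and 6.28 normalized CPM in WT cells and 8.62 and 1.28 in Def6-/- cells, a difference of -0.86 (standard error 0.59) that rests on 1 library of 3 reads. It was 0.18 without that library and -1.90 without the other Def6-/- library (unadjusted limma p of 0.00267). Ndufs1 had 77.8 and 77.9 against 64.1 and 67.9, a difference of -0.24 (standard error 0.17), with no overlap. Cox6b2 differed by -0.52 (standard error 0.50).

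**Figure D5:**
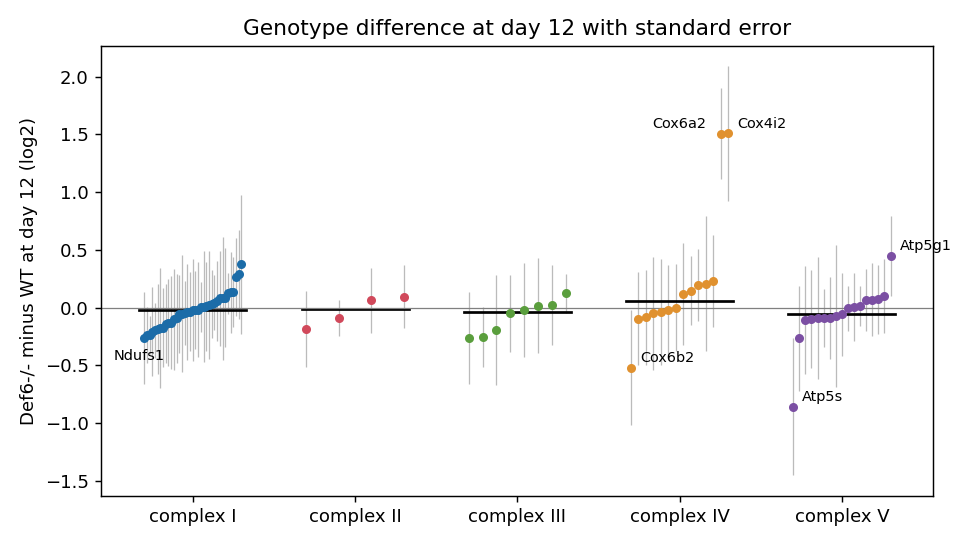
Difference between Def6-/- and WT cells at day 12 on the log2(normalized CPM + 1) scale for each of the 80 tested subunits, ordered by value within each complex, with standard errors from limma as grey bars and medians per complex as black lines. The medians lie between -0.06 and 0.06, and Cox6a2 and Cox4i2, both at 1.51, stand above all other genes.

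At day 0 the comparison of genotypes rested on the WT library that stood apart. With all 8 libraries, 0 of the 80 genes were higher and 0 lower at an unadjusted limma p under 0.05, against 0.988% and 1.31% of all genes, and none had an adjusted p under 0.05, against 0.0081%. By edgeR 6 and by DESeq2 12 members were lower at an unadjusted p under 0.05, against 1.7% and 1.43% of all genes, with 0 at an adjusted p under 0.05. The median difference was -0.47, with 76 of 80 genes below 0. Without that library the median was 0.16, with 68 of 80 above 0, and 4 genes were higher and 0 lower at an unadjusted p under 0.05, against 2.23% in each direction. These 4 were Ndufa4l2, Ndufa8, Ndufa11 and Atp5j, of which Ndufa4l2 had 8 reads in both Def6-/- libraries together against 0 in the remaining WT library. Without WT replicate 2 in its place, 70 genes were lower at an unadjusted p under 0.05, where 17.2% of all genes were higher and 19.9% lower, and 65 had an adjusted limma p under 0.05, against 23.8% of all genes. No direction of the genotype difference at day 0 held with both choices.

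The interaction, which is the change with days in Def6-/- cells minus that in WT cells, was tested in the same fit. With all 8 libraries 1 member was higher and 0 lower at an unadjusted limma p under 0.05, against 0.696% and 0.421% of all genes, and 0 members and 0% of all genes had an adjusted limma p under 0.05. The member was Cox6a2, at 1.497 (standard error 0.56, unadjusted limma p of 0.0254, adjusted p = 0.9998). Without WT replicate 1 at day 0, 0 members were higher and 1, Ndufa11, was lower, against 1.67% and 1.85% of all genes, and the interaction of Cox6a2 was 1.13 (standard error 0.63, unadjusted limma p of 0.0968). The median interaction of the subunits was 0.43 with all 8 libraries and -0.21 without that library, so that its sign rested on 1 library.

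Genes around the respiratory chain were counted from lists of textbook members, to be read against the share of all genes called in the same fit. With all 8 libraries, 12.7% of all genes rose and 5.63% fell in WT cells, and 12% rose and 4.79% fell in Def6-/- cells. Without WT replicate 1 at day 0 the shares, given above, were larger. In that fit assembly factors and mitochondrial ribosomal protein genes fell less often than all genes, and tricarboxylic acid cycle genes more often. Of the 13 tested genes of the tricarboxylic acid cycle, which feeds electrons to the chain, 3 fell in WT cells and 0 in Def6-/- cells by limma with all 8 libraries, and none rose. Without the library that stood apart, 3 fell in WT and 6 in Def6-/- cells, and the medians over the list were -0.31 and -0.32. Among them, Cs, citrate synthase, had 206 and 209 normalized CPM in WT cells and 212 and 219 in Def6-/- cells at day 0, and 150 and 131 in WT cells and 159 and 149 in Def6-/- cells at day 12. Thus its libraries did not overlap between days, and the 2 WT libraries at day 0 differed little. Idh3a, a subunit of isocitrate dehydrogenase, fell by 0.74 and 0.78 and Mdh2, mitochondrial malate dehydrogenase, by 0.51 and 0.63 on the log2 scale in WT and Def6-/- cells without that library. The difference between these genes and the subunits, whose medians were 0.16 and -0.04 in the same fits, was not tested.

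Of 45 tested assembly factors, 1 rose and 2 fell in WT cells and 0 rose and 5 fell in Def6-/- cells without that library, and 0 rose and 3 fell, and 0 and 0, with all 8 libraries. Lrpprc, which stabilizes mitochondrial mRNAs, and Tmem70, an assembly factor of the ATP synthase, fell in both genotypes in the 7 libraries, Lrpprc by 0.57 and 0.60 and Tmem70 by 0.74 and 0.57. Of 77 mitochondrial ribosomal protein genes, 1 rose and 1 fell in WT cells and 2 rose and 6 fell in Def6-/- cells without that library, with medians of -0.07 and -0.14, and with all 8 libraries 0 rose and 3 fell, and 1 rose and 0 fell. Of 5 tested genes for ADP and ATP exchange and outer membrane channels, 0 changed in WT cells and 3 fell in Def6-/- cells without that library, namely Vdac1, Vdac2 and Vdac3 by 0.40, 0.49 and 0.53, and 0 changed with all 8. Of 12 tested regulators of mitochondrial biogenesis, 0 changed in WT cells and 1 rose and 2 fell in Def6-/- cells without that library; the gene that rose was the coactivator Ppargc1a, by 1.63, from 0.75 and 0.34 to 4.11 and 3.42 normalized CPM. It was at 0 reads in both WT libraries at day 0 and at 1.15 and 3.35 at day 12. When that library was kept, 1 of the 12 rose in WT cells, again Ppargc1a by 1.61, and 1 rose and 1 fell in Def6-/- cells. Of the 2 electron carrier genes outside the symbol rule, Cyc1 and Cycs, Cyc1, the cytochrome c1 subunit of complex III, fell by 0.40 in Def6-/- cells without that library, and neither changed with all 8 libraries.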

How the data were processed

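Per the labels and the study's methods, poly-A RNA was sequenced on an Illumina HiSeq instrument, and the authors used fastp, HISAT2 on mm10, HTSeq and edgeR to make CPM values, which they deposited for each library; versions, annotation and strand setting are not given in the sources used here. The deposited CPM also count the reads outside genes in the total. Of 114821 positive values, 99.96% were whole multiples of 1 read (within 0.05 reads), all of those of the members among them, so that reads could be recovered. CPM were rescaled to reads on genes with TMM factors from the genes kept, and log2(CPM + 1) was tested with limma 3.58.1 (lmFit, eBayes with a trend) in 1 fit of 4 group means over 12348 genes, with Benjamini-Hochberg adjustment. Calls were made at an adjusted p under 0.05 for days and an unadjusted p under 0.05, the study's criterion, between genotypes. edgeR 4.0.16 (quasi-likelihood) and DESeq2 1.42.0 on recovered reads were alternatives, in R 4.3.3. All 3 tests were run on simulated counts whose spread was estimated without WT replicate 1 at day 0. That check does not cover the deviation of this library.

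The members, lists, markers and tests were chosen with earlier results of these data known. Genes were named by a rule: the 5 members with the smallest p per direction for each comparison of days, the 3 for each comparison of genotypes and for the interaction, the highest and lowest per kb in each complex, paralogous isoforms, members under the filter and Def6; members called only without WT replicate 1 at day 0, related genes and overlapping genes were named after their values were seen. Members with the smallest p that passed no test are given only where a result turns on them. Positions and lengths are from GENCODE M21 on GRCm38, the build of mm10, in which all 85 members were found, and promoters from RefSeq on GRCm38.p6. Depth, at 2414856 to 3482837 reads on genes, limits the precision of low genes. With 2 libraries per group an exact two-sided permutation test cannot go below p = 0.333, so that tests that share the spread across genes were used.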

Additional observations from a re-analysis of the deposited data

Results flagged for a closer look

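Cox6a2, the heart and skeletal muscle form of cytochrome c oxidase subunit VIa, changed differently with days in the 2 genotypes at an unadjusted limma p of 0.0254, with a difference of 1.497 on the log2 scale (adjusted p = 0.9998). WT cells had 21 and 13 reads at day 0 and 1 read in each library at day 12, and Def6-/- cells had 19 and 16 reads at day 0 and 9 and 5 at day 12. The unadjusted p was above 0.05 in 6 of the other settings, among them 0.0968 without WT replicate 1 at day 0.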

How the results depend on the processing

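The values changed most with which WT library at day 0 was kept, and the cause was not tested. Leaving out each of the 8 libraries in turn moved the members that rose from day 0 to day 12 between 1 and 8 in WT and between 2 and 8 in Def6-/- cells, and those that fell between 1 and 68 and between 0 and 4, at an adjusted limma p under 0.05. Between genotypes at day 0, members higher ranged from 0 to 4 and lower from 0 to 70 at an unadjusted p, and 0 to 65 had an adjusted p under 0.05. At day 12 these were 1 to 2, 0 to 1 and 0, and for the interaction 0 to 65, 0 to 1 and 0 to 55. The medians ranged from -1.11 to 0.16 (WT days), -0.06 to -0.01 (Def6-/- days), -1.08 to 0.16 (day 0), -0.04 to 0.01 (day 12) and -0.21 to 1.11 (interaction). All the upper or lower extremes over 10 members came from leaving out WT replicate 2 at day 0. With 1 library left out the day 0 differences of Ndufa4l2 ranged from -0.78 to 1.27 and of Cox4i2 from -0.24 to 0.57, and those of Atp5s from -1.90 to 0.18 at day 12 and from -1.88 to 0.19 in the interaction. Those that turned sign were Ndufa4l2 (-0.012 and -0.78) and Cox4i2 (-0.24 and -0.075) at day 0, without Def6-/- replicate 1 and WT replicate 2, and of Atp5s without Def6-/- replicate 2 at day 12 (0.18, interaction 0.19).

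Among the other settings, the edgeR test without WT replicate 1 at day 0, chosen after seeing the data, gave 8 members higher in WT cells, 7 higher and 3 lower in Def6-/- cells, 3 higher between genotypes at day 0 with a median of 0.17, and for the interaction 1 lower with a median of -0.22. edgeR and DESeq2 with all libraries gave 6 and 12 members lower at day 0 and 1 and 1 higher at day 12, and Ndufa4l2 at day 0 turned to -0.067 and -0.091. Fitting only the groups compared gave 1 higher and 1 lower in WT cells, 7 higher and 3 lower in Def6-/- cells, and 1 lower between genotypes at day 12. Deposited CPM gave 1 higher in WT cells, medians of -0.12 in Def6-/- cells and 0.048 at day 12, and 0 for the interaction. Reads on genes without TMM factors gave 4 lower in WT cells, and 1 lower and a median of -0.15 in Def6-/- cells. A pseudocount of 5 gave 1 higher in WT cells and 0 for the interaction, a pseudocount of 0.5 gave 1 higher at day 12, and no filter gave 1 lower in WT cells. With the replicate number as a block, 3 members were higher in the interaction. The labels do not say whether same-numbered libraries belong together. Correlations of their deviations from the group means were all positive, between 0.0023 and 0.327, the highest between WT and Def6-/- cells at day 0. Whether the numbers mark a batch was not tested. The block changed no other count by more than 1.5 times.

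Scaling moved the median of all genes by over 0.1 in 2 comparisons: from -0.02 to 0.10 at day 0 with deposited CPM and from 0.01 to -0.10 for days in Def6-/- cells without TMM factors. DESeq2, with its own size factors, gave 16.5% higher of the genes called at day 0 and 71.8% at day 12, against 43.0% and 57.8%, and for the interaction 36 higher and 9 lower against 86 and 52. Of all genes called, the share that was higher went from 43.0% to 72.2% at day 0 and from 57.8% to 70.0% at day 12 with deposited CPM, and from 71.5% to 61.2% for days in Def6-/- cells without TMM factors. Other differences of named members that changed call kept their direction. Outside the limma fits that left out 1 library in turn, 23 cases gained and 11 lost the call. These cases include those of the edgeR test without WT replicate 1 at day 0. Members with few reads, such as Cox4i2 and Cox6a2, are limited by depth.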
